A study of Mus musculus with 10 samples.

Results

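Genes that glucocorticoids are known to induce were examined together with the gene of their receptor in hearts of trained and sedentary mice. The group held 10 genes, chosen by name: *Fkbp5*, *Tsc22d3*, *Zbtb16*, *Sgk1*, *Errfi1*, *Ddit4*, *Cdkn1a*, *Mt1*, *Mt2* and the receptor gene *Nr3c1*. They are 10 of the 56748 genes in the deposited tables, and all 10 were among the 15454 genes with enough counts to be tested. The choice was made with the same training against sedentary contrast in view, so the values of the 10 genes are given as a description, with a standard error (SE) and no test.

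Glucocorticoids are steroid hormones of the adrenal cortex (corticosterone in mice) that are released in a daily rhythm and in response to stress, physical effort included. They bind the glucocorticoid receptor, which is held in the cytoplasm by HSP90 and its co-chaperones, moves to the nucleus and switches on genes near its binding sites. Several of these genes restrain the hormone or the growth signals that it meets: FKBP5 lowers the affinity of the receptor for the hormone, TSC22D3 (GILZ) is anti-inflammatory, and DDIT4 and ERRFI1 curb mTORC1 and EGF receptor signaling. Cardiomyocytes carry the receptor and respond to it directly.

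All mice were C57BL/6 from 1 supplier, bought at 8 weeks of age, and the study scanned both groups by PET/CT under isoflurane. The training group ran on a treadmill at 15 m/min for 120 min per day on 5 days per week for 8 weeks. Sessions were held during the day, at the same time each day, after 1 week of acclimatization. The sedentary control group did not follow this protocol. RNA came from the whole heart of 5 mice per group with both atria included, and the time of day at which hearts were taken is not given in the sources used here. The reads counted on genes ranged from 29461697 to 35945417 per training heart and from 35196993 to 39431030 per sedentary heart, with means of 33369313 and 37425718 (p = 0.0238 by an exact two-sided permutation test). Each of the 10 genes had between 583 and 8906 counts in every heart. Cardiomyocyte genes led by *Myh6* were the most abundant markers in all hearts, whereas *Myh4* and *Myh1* of fast skeletal muscle averaged under 0.05 CPM in the sedentary hearts; both were chosen after their values were seen. In whole tissue, fewer cells of a type cannot be told apart from less RNA of a gene per cell.

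The 9 induced genes were all lower on average in the training hearts. Their log2 fold changes of training over sedentary hearts lay between −0.90 and −0.21, with a median of −0.50, whereas the median of all 15454 genes tested was 0.00026 and 49.9% of them lay below 0. *Nr3c1*, the receptor gene, was the exception and was 17.4% higher. In 3 of the 10 genes the training hearts did not overlap the sedentary hearts, as in 5.06% of all genes (2.94% with the training hearts lower). Since this contrast was in view when the genes were chosen, nothing is read from this count. Summed over the 10 genes, training hearts held 856 ± 72.3 CPM and sedentary hearts 1120 ± 98.8 CPM (SD, n = 5 each), where CPM is the count of a gene per 1000000 counts on genes after composition correction.

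**Figure D1:**
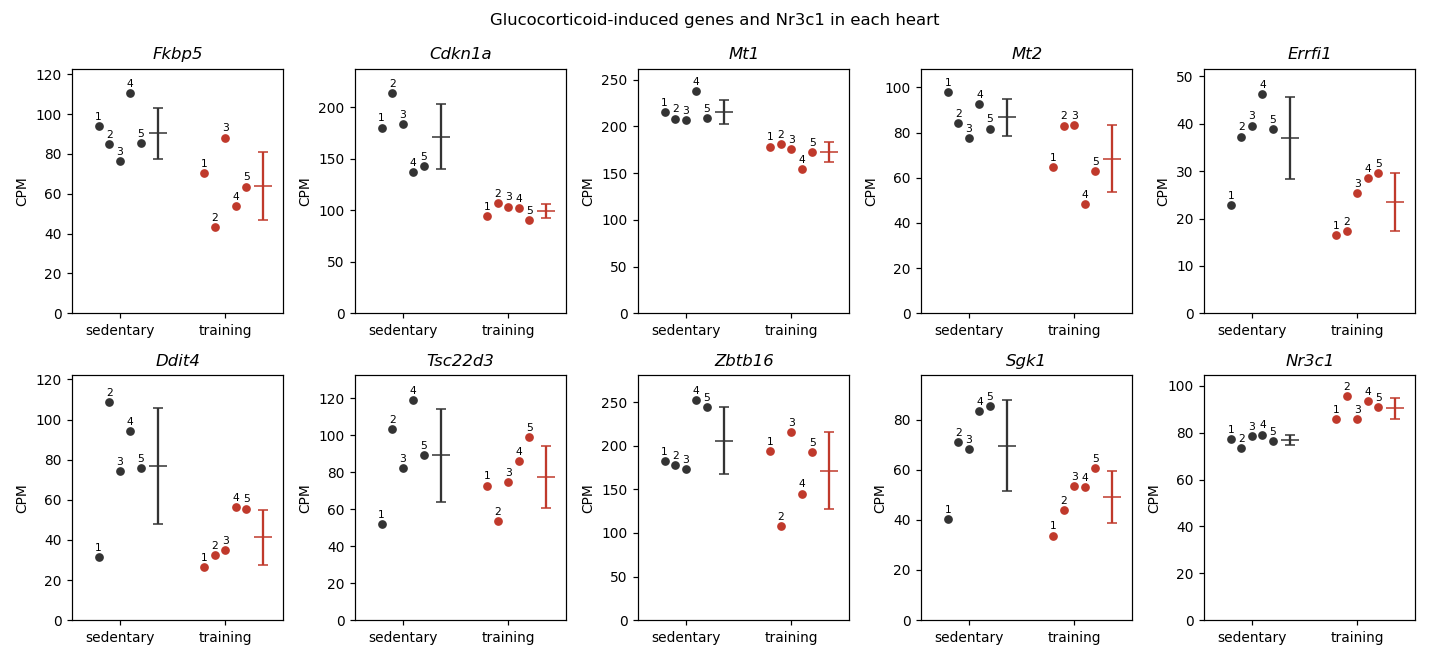
CPM of the 10 genes in each heart, with a point per heart labeled by its mouse number and the mean ± SD (n = 5) beside each group (black, sedentary; red, training). *Cdkn1a*, *Mt1* and *Nr3c1* separate the groups completely, and sedentary heart 1 lies among or below the training hearts for *Errfi1*, *Ddit4*, *Tsc22d3* and *Sgk1*.

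The feedback gene *Fkbp5* (ENSMUSG00000024222, GRCm39 chromosome 17, 28618058 to 28737521, minus strand) encodes a co-chaperone of the receptor and is a widely used readout of receptor activity. Training hearts 1 to 5 held 70.3, 43.4, 88.2, 53.8 and 63.6 CPM of *Fkbp5*, and sedentary hearts 1 to 5 held 94.2, 84.9, 76.3, 110.4 and 85.5 CPM. Of the training hearts, 4 lay below every sedentary heart, and training heart 3 alone reached into the sedentary range. This was a log2 fold change of −0.50 (SE 0.15), or a level 29.2% lower with training.

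*Tsc22d3* (ENSMUSG00000031431, chromosome X, 139440091 to 139501408, minus strand) encodes GILZ, a mediator of the anti-inflammatory action of the hormone. Its level was 72.8, 53.8, 75.0, 86.1 and 98.9 CPM in training hearts 1 to 5 and 51.8, 103, 82.4, 119 and 89.4 CPM in sedentary hearts 1 to 5. The lowest heart of all was sedentary heart 1, so the groups overlapped widely. Its log2 fold change, −0.21 (SE 0.19), was about the size of its error, and it ranged from −0.35 without sedentary heart 1 to −0.08 without sedentary heart 4.

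*Zbtb16* (ENSMUSG00000066687, chromosome 9, 48563141 to 48748664, minus strand) encodes the zinc finger repressor PLZF. It was at 194, 108, 216, 145 and 193 CPM in training hearts 1 to 5 and at 182, 177, 174, 252.5 and 244 CPM in sedentary hearts 1 to 5. Sedentary hearts 4 and 5 lay above all training hearts and training hearts 2 and 4 below all sedentary hearts. The other training hearts lay above sedentary hearts 1 to 3, and the training median, 193 CPM, was above the sedentary median, 182 CPM. On the log2 scale the means differed by −0.27 (SE 0.17), and by −0.14 without training heart 2.

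*Sgk1*, *Errfi1* and *Ddit4* act in growth and stress signaling. *Sgk1* (ENSMUSG00000019970, chromosome 10, 21758083 to 21875802, plus strand) encodes a kinase that acts on ion channels and lies downstream of PI3K. Its level was 33.7, 43.8, 53.5, 53.1 and 60.5 CPM in training hearts 1 to 5 and 40.3, 70.9, 68.3, 83.2 and 85.4 CPM in sedentary hearts 1 to 5, a log2 fold change of −0.51 (SE 0.18). Sedentary hearts 2 to 5 all exceeded the training hearts, and sedentary heart 1 lay below 4 of them.

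*Errfi1* (ENSMUSG00000028967, chromosome 4, 150938376 to 150955402, plus strand) encodes MIG6, an inhibitor of the EGF receptor. It was at 16.5, 17.3, 25.4, 28.6 and 29.5 CPM in training hearts 1 to 5 and at 22.8, 37.3, 39.6, 46.3 and 38.8 CPM in sedentary hearts 1 to 5. The arrangement was that of *Sgk1*: apart from sedentary heart 1, the groups were separate. On the log2 scale the difference was −0.66 (SE 0.19).

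*Ddit4* (ENSMUSG00000020108, chromosome 10, 59785491 to 59788492, minus strand) encodes REDD1, an inhibitor of mTORC1 that hypoxia and DNA damage also induce. Training hearts 1 to 5 held 26.5, 32.6, 35.1, 56.5 and 55.6 CPM, and sedentary hearts 1 to 5 held 31.6, 109, 74.1, 94.1 and 75.9 CPM. Again only sedentary heart 1 fell within the training range. The log2 fold change of −0.90 (SE 0.28) was the lowest of the 10 genes and also the least precise, with a level 46.4% lower in the training hearts.

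*Cdkn1a* (ENSMUSG00000023067, chromosome 17, 29309936 to 29319701, plus strand) encodes p21, an inhibitor of cyclin-dependent kinases that is also the classical target of p53. It was at 94.1, 106.7, 104, 102 and 90.2 CPM in training hearts 1 to 5 and at 180.1, 214, 184, 137 and 143 CPM in sedentary hearts 1 to 5. The groups did not overlap, and the training hearts lay within a narrow range. A log2 fold change of −0.79 (SE 0.10) made the level 42.1% lower with training.

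Of 19 other genes of the p53 pathway tested, its targets and the p53 gene *Trp53* itself, 2 were lower and none higher at a false discovery rate (FDR) below 0.1 (4.26% of all genes were lower and 2.75% higher), and their median log2 fold change was −0.03. *Fas*, a death receptor, fell by 0.32 on the log2 scale (SE 0.079, Benjamini-Hochberg adjusted p = 0.0427 by the quasi-likelihood test of edgeR), and *Ccng1*, the cyclin G1 gene, by 0.16 (SE 0.047, adjusted p = 0.0740 from the same edgeR test). With a heart left out, *Fas* passed in all 10 fits and *Ccng1* in 4 of them. Neither passed with a score of atrial markers as a covariate (log2 fold changes −0.19 and −0.15). Of the 1084 genes called without that score, only 102 kept their call with it. The p53 pathway genes next in abundance, *Sesn1* and *Perp*, had log2 fold changes of −0.02 and 0.07.

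Of 11 genes of the hypoxia response, which also induces *Ddit4*, 3 were lower and none was higher at the same FDR (all genes, 4.26% and 2.75%). *Vegfa*, the main angiogenic growth factor, averaged 274 ± 12.7 CPM with training against 340 ± 27.8 CPM in sedentary controls (SD, n = 5 each), without overlap (log2 fold change −0.31, SE 0.056, adjusted p = 0.0158 by the same edgeR test). *Egln3* and *Egln1*, prolyl hydroxylases that mark HIF for degradation, had log2 fold changes of −0.34 (adjusted p = 0.0429 in the same edgeR test) and −0.14 (adjusted p = 0.0814). The remaining 8 genes did not pass in edgeR, whereas DESeq2 called 5 of the 11, and the median of the list was −0.05. With a heart left out, *Vegfa* passed in 10, *Egln3* in 9 and *Egln1* in 2 of 10 fits. None of the 3 passed with the atrial score (log2 fold changes −0.23, −0.23 and −0.08), with which 102 of all 1084 called genes kept their call.

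The metallothionein genes *Mt1* and *Mt2* encode small proteins that bind zinc and copper, and respond both to glucocorticoids and, through the zinc-sensing factor MTF1, to metals. *Mt1* (ENSMUSG00000031765, chromosome 8, 94905710 to 94906955, plus strand) and *Mt2* (ENSMUSG00000031762, chromosome 8, 94898819 to 94900207, plus strand) lie side by side. Their promoters are shown since they were the only promoters of the 10 genes with both forms of the metal response core searched for, and that of *Mt1* alone had a match to the receptor motif. Each sequence runs 5′ to 3′ from 250 bases before to 50 bases after the start of the canonical transcript, chr8:94905460-94905759 for *Mt1* and chr8:94898882-94899181 for *Mt2* (GRCm39, plus strand). Capitals mark matches to the metal response cores TGCACNC and TGCGCNC and, in *Mt1*, to a loose form of the receptor palindrome, GNACA and TGTNC with 3 bases between them.

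Mt1: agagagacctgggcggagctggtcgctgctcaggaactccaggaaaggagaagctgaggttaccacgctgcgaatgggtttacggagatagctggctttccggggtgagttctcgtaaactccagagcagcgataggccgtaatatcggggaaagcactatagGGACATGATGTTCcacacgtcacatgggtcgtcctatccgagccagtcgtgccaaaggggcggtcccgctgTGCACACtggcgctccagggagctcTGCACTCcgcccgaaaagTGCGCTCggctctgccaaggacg
Mt2: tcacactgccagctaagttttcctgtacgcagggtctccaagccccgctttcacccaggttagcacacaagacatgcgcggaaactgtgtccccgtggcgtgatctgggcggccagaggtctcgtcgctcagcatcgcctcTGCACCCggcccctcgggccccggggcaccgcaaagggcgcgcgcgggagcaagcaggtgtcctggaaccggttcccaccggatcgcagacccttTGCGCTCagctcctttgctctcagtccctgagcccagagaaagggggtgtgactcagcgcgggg

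In *Mt1* the loose palindrome began 87 bases before the start, and the metal response cores TGCACNC began 16 bases before the start and at base 10 of the transcript, followed by TGCGCNC at base 28. *Mt2* had TGCACNC 109 bases and TGCGCNC 14 bases before the start and no match to the palindrome. Both strands were searched in the promoters of the 13555 protein-coding genes tested. TGCACNC occurred in 13.4% of them, TGCGCNC in 23% and the loose palindrome in 0.332%, and of the 32 further glucocorticoid-induced genes described below, 4 held the loose palindrome. The strict palindrome, AGAACA and TGTTCT with 3 bases between them, occurred in 0 of them, and its first arm alone, AGAACA, occurred in 12.9%, in none of the 10 genes and in 7 of the 32 further genes. TGCGCNC also occurred in *Ddit4*, *Tsc22d3*, *Zbtb16* and *Sgk1*. These are matches of letters in a 300-base window, and receptor binding was not measured.

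*Mt1* was at 178, 181, 176, 154 and 172 CPM in training hearts 1 to 5 and at 215, 208, 207, 238 and 209 CPM in sedentary hearts 1 to 5. Every sedentary heart lay above every training heart. Its log2 fold change of −0.32 (SE 0.053) was the most precise of the 9 induced genes, with a level 20.0% lower. *Mt2* was at 64.6, 83.1, 83.3, 48.4 and 62.8 CPM in training hearts 1 to 5 and at 97.8, 84.3, 77.7, 92.7 and 81.8 CPM in sedentary hearts 1 to 5. Training hearts 2 and 3 reached the sedentary range, and the log2 fold change was −0.34 (SE 0.12), close to that of *Mt1* with a wider error.

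The strand of the reads decided what could be seen of *Mt2*. It shares 783 exonic bases with *Gm45774*, a long non-coding RNA gene on the opposite strand that held 64 counts in all 10 hearts together. Counting without strand left *Mt2* with 4413 counts, 15.9% of the 27733 on its own strand, and its log2 fold change was then −0.04. The share ranged from 13.4% to 22.2% between hearts. For the other 9 genes the unstranded count held 96.2% or more of the stranded count.

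Of 5 other genes of zinc handling 4 could be tested, and none passed the FDR (edgeR's quasi-likelihood test), with 1 of them at an unadjusted p under 0.05 and 1 called by DESeq2. *Slc30a1*, the zinc exporter that MTF1 induces together with the metallothioneins, had a log2 fold change of 0.22 (SE 0.071), *Mtf1* itself of −0.00 and the zinc importer *Slc39a10* of −0.12. *Mt4*, the metallothionein of stratified epithelia, had no count in any heart, and was chosen after its values were seen.

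*Nr3c1* (ENSMUSG00000024431, chromosome 18, 39543598 to 39652474, minus strand) encodes the glucocorticoid receptor. Training hearts 1 to 5 held 85.7, 95.5, 85.8, 93.5 and 90.9 CPM, and sedentary hearts 1 to 5 held 77.1, 73.5, 78.5, 79.2 and 76.4 CPM. All training hearts lay above all sedentary hearts, and the sedentary hearts differed little from each other. The log2 fold change was 0.23 (SE 0.042), the smallest error of the 10 genes.

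The proteins that hold, modify or feed the receptor were examined as a list of 16 genes, of which 15 could be tested. At an FDR below 0.1, 2 were lower and none was higher with training (4.26% of all genes were lower and 2.75% higher). DESeq2 called 4 of the 15, and the median log2 fold change of the 15 was −0.04. *Hsd11b1*, which regenerates active corticosterone from its inert form inside cells, was at 11.5 ± 1.13 CPM (SD, n = 5) in training and 13.8 ± 0.980 CPM (SD, n = 5) in sedentary hearts, without overlap. It fell by 0.26 on the log2 scale (SE 0.074, adjusted p = 0.0715 by edgeR's quasi-likelihood test). *Ncor1*, a corepressor of nuclear receptors, fell by 0.15 (SE 0.047, adjusted p = 0.0957 from the same edgeR test). With a heart left out, *Hsd11b1* passed in 5 and *Ncor1* in 1 of 10 fits. Neither passed with the atrial score (log2 fold changes −0.32 and −0.10), with which 102 of all 1084 called genes kept their call.

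The most abundant genes of this list were the chaperone genes *Hsp90ab1*, *Hspa8* and *Fkbp4*, with log2 fold changes of −0.04, −0.01 and −0.06, none of which passed. *Fkbp4* encodes the co-chaperone that favors hormone binding, the counterpart of FKBP5. The mineralocorticoid receptor gene *Nr3c2*, whose protein also binds corticosterone, was at 3.26 ± 0.304 TPM (transcripts per 1000000, corrected for gene length) in the sedentary hearts, against 14.1 ± 0.730 TPM for *Nr3c1*, and had a log2 fold change of 0.11 (SE 0.067). *Hsd11b2*, the enzyme that inactivates corticosterone, was at 0.078 TPM and was not tested. These 2 genes were chosen after their values were seen.

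On the TPM scale, which divides by gene length and so allows genes to be compared, the order of levels in the sedentary hearts was *Mt1*, *Mt2*, *Cdkn1a*, *Tsc22d3*, *Ddit4*, *Zbtb16*, *Sgk1*, *Fkbp5*, *Nr3c1* and *Errfi1*. *Mt1* was at 471 ± 29.1 TPM, *Mt2* at 208 ± 24.7 TPM, *Cdkn1a* at 96.9 ± 20.1 TPM and *Errfi1* at 12.7 ± 2.66 TPM (SD, n = 5). From *Tsc22d3* at 50.2 ± 12.1 TPM down to *Fkbp5* at 30.2 ± 4.02 TPM, each gene overlapped its neighbor in the order, as *Nr3c1* did with *Errfi1*. *Mt1*, *Mt2* and *Cdkn1a* were each separate from the next gene, and so was *Fkbp5* from *Nr3c1*.

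**Figure D2:**
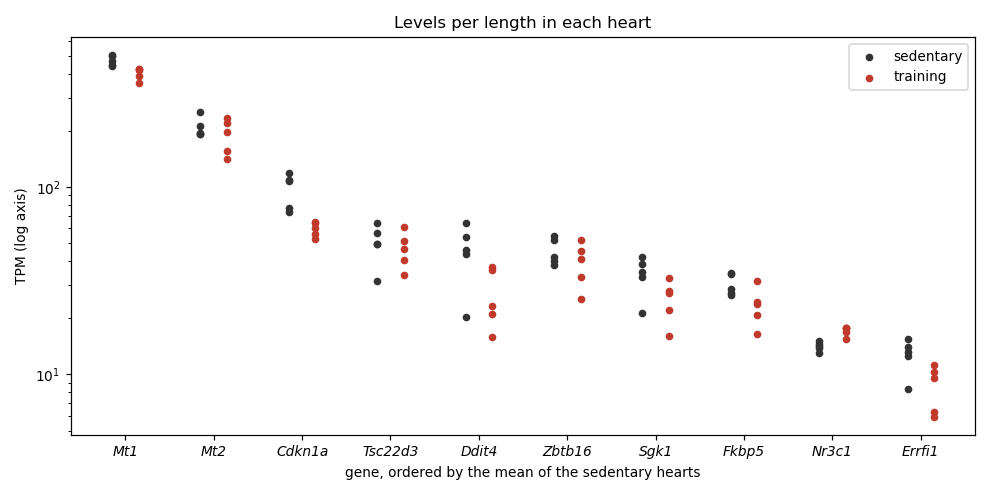
TPM of the 10 genes on a log axis, with a point per heart (black, sedentary; red, training; n = 5 each), ordered by the mean of the sedentary hearts. The levels run from 471 TPM for *Mt1* to 12.7 TPM for *Errfi1* in the sedentary hearts, and *Nr3c1* is the gene with higher points after training.

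The 9 induced genes did not vary together as a single block. Of these 9 genes, sedentary heart 1 was the lowest of its group for *Errfi1*, *Ddit4*, *Tsc22d3* and *Sgk1* but the highest for *Mt2*, and sedentary heart 4 was the highest for 5, *Fkbp5*, *Mt1*, *Errfi1*, *Tsc22d3* and *Zbtb16*, but the lowest for *Cdkn1a*. In the training group, heart 2 was the lowest for *Fkbp5*, *Tsc22d3* and *Zbtb16*, heart 1 for *Errfi1*, *Ddit4* and *Sgk1*, and heart 3 was the highest for *Fkbp5*, *Mt2* and *Zbtb16*. Of 32 further glucocorticoid-induced genes, sedentary heart 1 was the lowest of its group for 18 and the highest for 7, and sedentary heart 4 was the highest for 16. In the training group, heart 2 was the lowest for 17 of them and heart 1 for 7, and heart 5 was the highest for 15 and heart 3 for 10.

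Without the difference between groups, the members nearest to each other were *Sgk1* and *Errfi1*, with *Ddit4* nearest to *Errfi1* and *Tsc22d3* to *Ddit4*, and apart from them *Fkbp5* and *Zbtb16*. *Mt1* and *Mt2* were each other's nearest member. Likeness was the mean squared difference of standardized log2 CPM over the 10 hearts after removal of the group means, which would be 0 for equal patterns. It was 0.152 for *Sgk1* and *Errfi1*, 0.233 for *Ddit4* and *Errfi1*, 0.269 for *Fkbp5* and *Zbtb16* and 0.515 for *Mt1* and *Mt2*. Genes outside the group were nearer still. Among 10024 protein-coding genes, *Errfi1* ranked 23 in nearness to *Sgk1* and 30 to *Ddit4*. *Zbtb16* ranked 16 to *Fkbp5* and *Mt2* ranked 45 to *Mt1*. No member was among the 3 genes nearest to another member. For *Cdkn1a* and *Nr3c1* no member came nearer than 1.87 and 1.68. These are descriptions over 10 hearts that share library preparation.

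**Figure D3:**
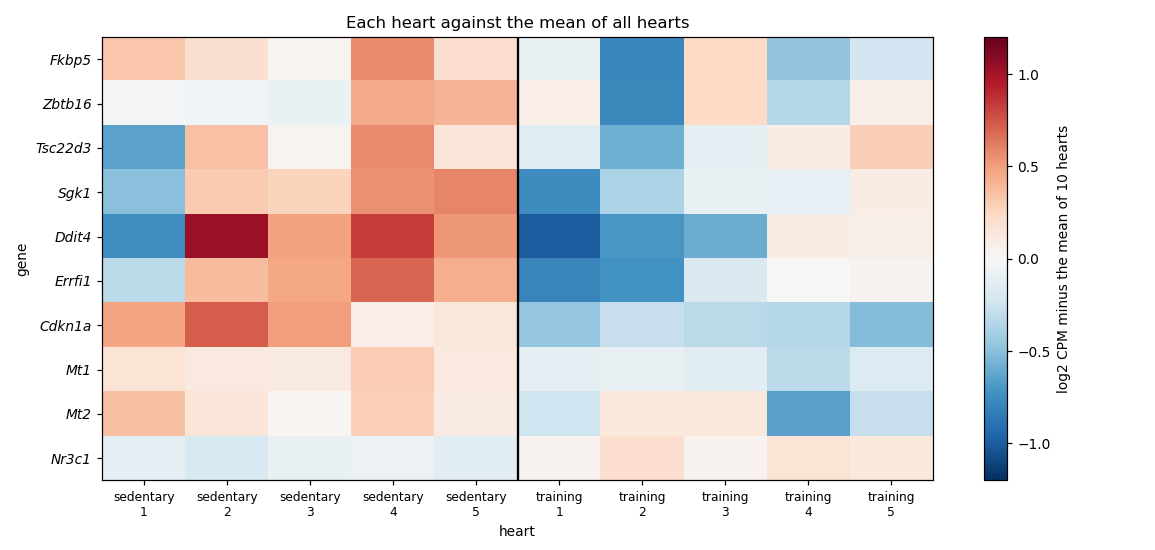
Log2 CPM of each gene in each heart minus its mean over the 10 hearts (color scale; rows, genes; columns, hearts, with a line between the sedentary and training groups). Red and blue alternate within a group along blocks of genes: among the 9 induced genes, sedentary heart 1 is clearly blue for *Tsc22d3*, *Sgk1*, *Ddit4* and *Errfi1*, and training heart 2 is the bluest training heart for *Fkbp5* and *Zbtb16*.

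The genes nearest to each member were also sought among 10024 other protein-coding genes that averaged 5 CPM or more. Over all 10 hearts, group difference included, *Pik3r1* and *Fam107a* were nearest to *Fkbp5* (0.139 and 0.183), *Nr4a3* to *Errfi1* (0.0517), *Fzd4* to *Ddit4* (0.117), *Tanc1* to *Sgk1* (0.0398), *Zfp189* to *Zbtb16* (0.118) and *Tob2* to *Tsc22d3* (0.0834), with *Per1* (0.158) also among the 3 nearest. The nearest to *Cdkn1a* was *Bltp2* (0.0598), to *Mt1* *Fermt2* (0.0616), to *Mt2* *Noa1* (0.183) and to *Nr3c1* *Lhfpl2* (0.10). Of the 30 places so filled, 3 for each member, 3 went to genes of the list of 32 further glucocorticoid-induced genes, of which 29 were abundant enough to be found. With group means removed, 4 of the 30 places went to 3 genes of it: *Cebpd* beside *Errfi1*, *Cebpd* and *Nfkbia* beside *Ddit4*, and *Pik3r1* beside *Zbtb16*.

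These 32 genes, which glucocorticoids are known to induce in the heart or other tissues and which are not among the 10, were all tested. At an FDR below 0.1, 8 of them (25%) were lower in the training hearts and none was higher. Of all genes, 4.26% were lower and 2.75% higher, 7.01% in either direction. The list was fixed with earlier results on other genes of these data known. Of the 32, 26 had a log2 fold change below 0, and their median was −0.21 (all genes, 0.00026). DESeq2 also called 8, of which 6 were the same genes, and 13 had an unadjusted p under 0.05 in edgeR. Leaving out 1 heart at a time gave between 3 and 12 called genes. With a score of atrial markers as a covariate 3 were called, and with a score of clock genes 17, as described below.

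*Ptgds*, which makes prostaglandin D2, was at 257 ± 28.7 CPM (SD, n = 5) in training and 374 ± 33.8 CPM (SD, n = 5) in sedentary hearts. The groups did not overlap, and the log2 fold change was −0.54 (SE 0.077, adjusted p = 0.00702 by edgeR's quasi-likelihood test). *Pik3r1*, the gene of the p85α regulatory subunit of PI3K, was at 201 ± 23.1 CPM in training and 268 ± 19.7 CPM in sedentary hearts, also without overlap (log2 fold change −0.42, SE 0.075, adjusted p = 0.0153 in the same edgeR test). *Lcn2*, lipocalin 2, an iron-withholding protein of the innate defense, was low in all hearts and lower still with training, at 3.62 ± 0.864 against 7.09 ± 1.79 CPM (log2 fold change −0.97, SE 0.19, edgeR adjusted p = 0.0194). These 3 genes passed the FDR in all 10 fits that left out a heart.

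The other 5 passed less steadily. *Arrdc2*, an α-arrestin gene, was at 21.9, 11.9, 18.3, 24.7 and 46.0 CPM in training hearts 1 to 5 and at 23.9, 68.1, 44.9, 63.3 and 50.5 CPM in sedentary hearts 1 to 5, so that sedentary heart 1 again lay with the training hearts. Its log2 fold change was −1.04 (SE 0.31, adjusted p = 0.0877 by edgeR's quasi-likelihood test). *Fam107a*, *Slc10a6*, *Map3k6* and *Sult1a1* had log2 fold changes of −0.61, −0.54, −0.53 and −0.42 and adjusted p-values between 0.0651 and 0.0974 in the same edgeR test. *Slc10a6* encodes a carrier of steroid sulfates and *Sult1a1* a phenol sulfotransferase. Left-out fits called *Map3k6* in 5, *Sult1a1* in 4, *Fam107a* in 3 and *Arrdc2* and *Slc10a6* in 2 of 10 cases. All 5 training hearts lay below the sedentary mean for each of the 8 genes. Since the 8 were picked as called lower, this adds nothing to their calls.

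The most abundant genes of the list did not pass. *Pdk4*, the kinase that blocks pyruvate oxidation, was at 2117 ± 186 CPM (SD, n = 5) in training and 2276 ± 413 CPM in sedentary hearts, a log2 fold change of −0.10 (SE 0.11). *Glul*, glutamine synthetase, had a log2 fold change of 0.02 (SE 0.057) and *Tgm2*, a transglutaminase, of −0.11 (SE 0.051). When single hearts were left out, *Pdk4* ran from −0.19 to −0.05 and *Glul* from −0.02 to 0.05, so *Glul* did not keep its sign.

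**Figure D4:**
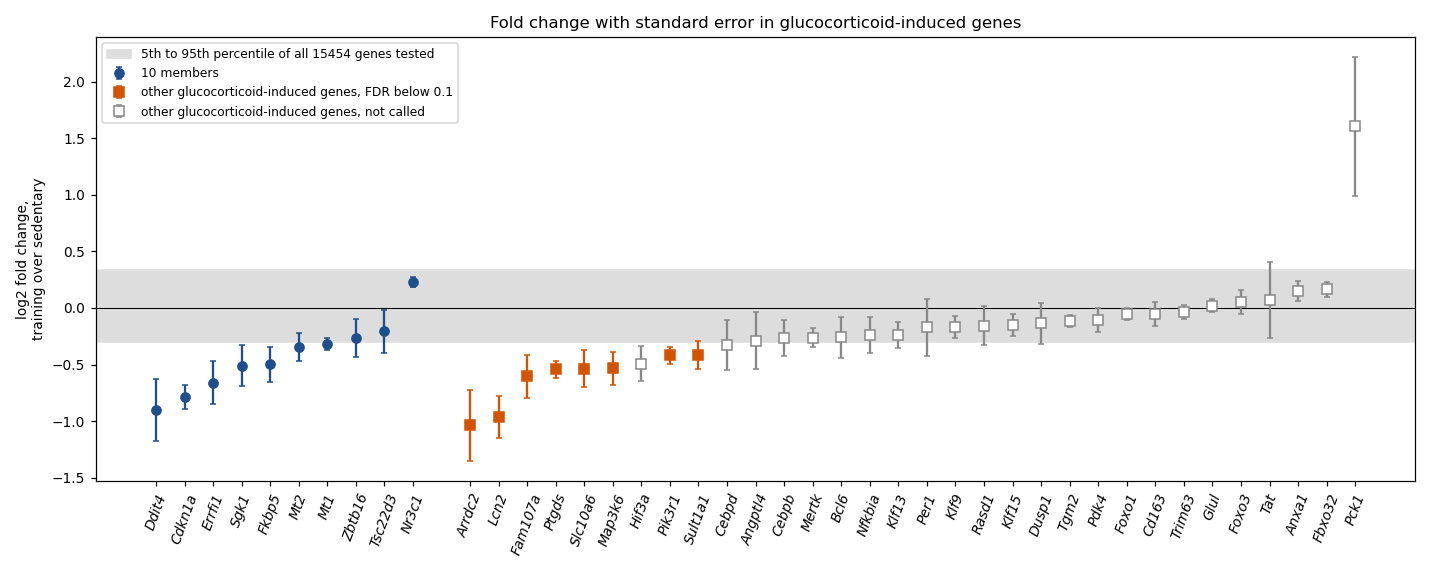
Log2 fold change of training over sedentary hearts with its SE for the 10 genes (circles) and the 32 further glucocorticoid-induced genes (squares; filled, FDR below 0.1), each set sorted by value. The band holds the 5th to 95th percentile of all 15454 genes tested, −0.30 to 0.33; the 8 filled squares all lie below it.

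Glucocorticoids are also known to hold down inflammatory genes. Of 12 such genes 10 could be tested. At an FDR below 0.1, 2 were higher and none lower (2.75% of all genes were higher and 4.26% lower). A log2 fold change above 0 was seen in 9 of the 10, with a median of 0.32 (all genes, 0.00026, with 49.9% below 0). *Ptgs2*, cyclooxygenase 2, was at 3.65, 3.49, 3.91, 2.68 and 3.18 CPM in training hearts 1 to 5 and at 1.96, 1.72, 2.61, 2.73 and 2.03 CPM in sedentary hearts 1 to 5. Only training heart 4 lay within the sedentary range (log2 fold change 0.62, SE 0.15, adjusted p = 0.0379 by edgeR's quasi-likelihood test). *Vcam1*, an adhesion molecule of activated endothelium, was at 31.4 ± 3.69 against 24.6 ± 2.21 CPM (log2 fold change 0.36, edgeR adjusted p = 0.0326). Both passed in all 10 fits without a heart. Neither passed with the atrial score (log2 fold changes 0.46 and 0.24), with which 102 of all 1084 called genes kept their call. *Icam1* and *Nos2*, the next in abundance, had log2 fold changes of 0.14 and −0.04 and did not pass. Several of the others were under 2 CPM on average in the sedentary hearts, *Tnf* and *Il1b* among them, which were chosen after their values were seen.

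The circadian clock drives the daily rhythm of the hormone, and *Per1* is a target of both. Of 18 clock genes, 6 were higher and 3 lower at an FDR below 0.1 (all genes, 2.75% and 4.26%). *Bmal1* had a log2 fold change of −1.19 and *Per3* of 0.80, while *Per1* had −0.17 (SE 0.25). In fits that left out single hearts *Per1* lay between −0.35 (without sedentary heart 1) and −0.01 (without sedentary heart 4) and never passed. *Bmal1* was at 5.67 to 8.67 CPM in the training hearts and at 23.3, 19.7, 19.3, 8.82 and 13.1 CPM in sedentary hearts 1 to 5, so the sedentary hearts differed among themselves. A score of the clock genes per heart averaged genes that rose, such as *Per3*, with genes that fell, such as *Bmal1*, which partly cancel. It ran from −0.056 to 0.16 in the training hearts and from −0.30 to 0.17 in the sedentary hearts. A fit with it therefore does not adjust for the time shown by the clock. With this score as a covariate, 17 of the 32 further glucocorticoid-induced genes passed the FDR. Of these 17, 16 were lower, with *Per1* among them at −0.48. *Per1* is on both lists, so the score includes its own values and nothing is read from its call there. In the same fit 1465 of the 15454 genes passed, against 1084 without the score. The median of the 9 induced genes was −0.58 there, with *Tsc22d3* at −0.42 and *Zbtb16* at −0.45. Time of day cannot be told apart from training here. Of 14 immediate early genes, which handling and stress switch on within minutes, none passed in edgeR or DESeq2, and 4 had an unadjusted p under 0.05 in edgeR. The most abundant, *Jund*, *Jun* and *Dusp1*, had log2 fold changes of 0.18 (SE 0.070), 0.02 (SE 0.085) and −0.14 (SE 0.18). When single hearts were left out, *Jun* ran from −0.05 to 0.09 and *Dusp1* from −0.29 (without sedentary heart 1) to 0.03 (without sedentary heart 4), so that neither kept its sign.

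Atrial markers varied between hearts. Of 8 markers, 2 passed an FDR below 0.1 and were higher with training, *Sln* (log2 fold change 0.75) and *Stard10* (0.48). Of all genes, 2.75% were higher and 4.26% lower. The most abundant marker was *Nppa*, and none was at 0. The summed level of the 8 markers was 6520, 5736, 7897, 6878 and 5334 CPM in training hearts 1 to 5. It was 7172, 3147, 4986, 5202 and 3171 CPM in sedentary hearts 1 to 5. Sedentary heart 1, the lowest of its group for *Errfi1*, *Ddit4*, *Tsc22d3* and *Sgk1*, thus had the highest atrial level of its group. Sedentary heart 4 had the next highest atrial level but was the highest of its group for *Errfi1* and *Tsc22d3*. Training heart 3 had the highest atrial level of the training group and was the lowest for none of the 9 induced genes. With a score of the atrial markers as a covariate, the log2 fold change was −0.43 for *Ddit4*, −0.28 for *Sgk1*, −0.56 for *Errfi1* and −0.03 for *Tsc22d3*, and it was −0.72 for *Fkbp5* and −0.35 for *Mt1*. In that fit 3 of the 32 further genes passed the FDR (*Ptgds*, *Pik3r1* and *Lcn2*), and 125 genes in all. Of the 5 that no longer passed, *Map3k6*, *Sult1a1* and *Fam107a* had log2 fold changes of −0.54, −0.44 and −0.69, no smaller than without the score, and *Arrdc2* and *Slc10a6* had −0.61 and −0.34, which were smaller.

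Endothelial markers were lower at an FDR below 0.1 in 2 of 8 cases, *Fabp4* (−0.24) and *Tie1* (−0.16). For this and the following lists, 4.26% of all genes were lower and 2.75% higher at that FDR. The summed level of the endothelial markers, led by *Fabp4*, was 1227, 1247, 1228, 1287 and 1262 CPM in training hearts 1 to 5. It was 1393, 1415, 1367, 1349 and 1360 CPM in sedentary hearts 1 to 5, so that the groups did not overlap. Of 10 cardiomyocyte markers 1 passed and was lower, *Actc1* (−0.38), and DESeq2 called 3. All 10 had lower means in the training hearts, and the middle of their log2 fold changes was −0.11. Their sum was 74437 ± 2180 CPM in training and 81718 ± 3903 CPM in sedentary hearts (SD, n = 5 each). Sedentary heart 1, at 75390 CPM, lay within the training range. Of 8 fibroblast markers 2 were higher, *Pdgfra* (0.24) and *Lum* (0.27), and of 8 mural markers *Tagln* was higher (0.54) and *Rgs5* lower (−0.18). In edgeR and DESeq2 alike, none of 8 macrophage, 6 adipocyte, 2 lymphocyte and 5 erythroid markers tested passed. Of these, 1 erythroid marker and no other had an unadjusted p under 0.05 in edgeR. Of 4 skeletal muscle markers tested, *Acta1* (−0.84) and *Ckm* (−0.22) were lower, both of which the heart also expresses. The part of these cell types in the levels of the 10 genes was not tested. The atrial score ran from 0.044 to 0.56 in the training hearts and from −0.82 to 0.30 in the sedentary hearts. Since it partly followed the group, the fit with it cannot tell the atrial share apart from training.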

How the data were processed

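Whole-heart RNA of 5 training and 5 sedentary mice had been sequenced from directional poly-A libraries, 1 per heart. For every gene of GRCm39 the authors deposited unnormalized counts of uniquely mapped reads by STAR 2.7.10a, per strand and unstranded. They also deposited RSEM 1.3.3 tables. Of these the expected counts, which the authors did not normalize, and the TPM values, which RSEM scaled to length and depth, were used; the deposited FPKM values, also scaled by RSEM, were not. The methods name Ensembl release 107. Counts on the reverse strand were used, which held a median of 95.4% of the stranded counts. Multimapping reads (17.9% to 19.2%) and reads on no gene (4.15% to 4.89%) were left out. Symbols, positions and promoters came from GENCODE M39 and the GRCm39 genome, and 56017 of 56748 identifiers matched.

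Groups followed the labels. Tests used edgeR 4.0.16 under R 4.3.3 (low counts removed by filterByExpr, TMM factors, quasi-likelihood F test, Benjamini-Hochberg adjustment over all genes, FDR below 0.1). Standard errors are the log2 fold change divided by the square root of F, and CPM use the TMM-corrected library size. Likeness and scores use log2 CPM with a prior count of 2. Alternatives were DESeq2 1.42.0, its size factors, library totals, other filters, RSEM expected counts rounded to whole numbers, counts of both strands, no mitochondrial DNA genes, atrial or clock scores as covariates, each heart left out and an FDR below 0.05. The steps were tested on simulated counts.

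The 10 genes and the 18 other lists were chosen with earlier results of these data known. Besides the 10 genes, at most 8 called genes per list (largest log2 fold change first), the 3 most abundant of a list and the 3 genes nearest to a member could be named; others are given as chosen after their values were seen. Residuals of hearts with the same mouse number correlated between −0.097 and 0.159, so the numbers were not taken as pairs. Labels name separate mice, and p-values measure the spread between them.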

Additional observations from a re-analysis of the deposited data

Results flagged for a closer look

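Values per heart were checked for a heart that stands far from the other 4 of its group, by the gap to its nearest neighbor over the range of the group, in the 36 groups formed by the 10 genes and the 8 further glucocorticoid-induced genes that passed. Chance alone marks about 1 in 20 groups.

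*Mt1* in sedentary heart 4 was at 238 CPM, whereas the other sedentary hearts lay between 207 and 215 CPM, and the gap was 0.750 of the range. Without this heart the log2 fold change of *Mt1* was −0.28.

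*Lcn2* in training heart 3 was at 5.14 CPM, whereas the other training hearts lay between 3.02 and 3.41 CPM, and the gap was 0.817 of the range.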

How the results depend on the processing

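The median of the 9 induced genes lay between −0.58 and −0.43 under 11 alternatives and between −0.54 and −0.40 with a heart left out. Of 210 values of single members under alternatives, 209 moved by less than the spread between replicates and none changed sign; *Mt2* was −0.04 with counts of both strands. With a heart left out, *Tsc22d3* and *Zbtb16* moved by over 1.5 times: *Tsc22d3* from −0.21 to −0.08 without sedentary replicate 4, −0.10 without training replicate 2, −0.31 without training replicate 5 and −0.35 without sedentary replicate 1, and *Zbtb16* from −0.27 to −0.14 without training replicate 2. With the clock score they were −0.42 and −0.45, and with the atrial score *Tsc22d3*, *Ddit4* and *Sgk1* were −0.03, −0.43 and −0.28.

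Genes called fell from 1084 to 505 at an FDR below 0.05 and to 125 with the atrial score, and further glucocorticoid-induced genes called from 8 to 3 in both cases, but numbered 17 with the clock score. With a heart left out, genes called ranged from 512 to 1490 (540 and 512 without training replicates 3 and 4, 611, 512 and 671 without sedentary replicates 2, 3 and 4), and the further genes from 3 to 12 (3 without training replicate 4 and sedentary replicates 2 and 4, 4 without training replicate 1 and sedentary replicates 3 and 5, 12 without sedentary replicate 1). The cause was not tested. Library totals without composition correction gave 1029 higher and 339 lower genes, against 425 and 659, and 1 higher and 5 lower further genes. The mouse number as a replicate block gave 1137 calls, 890 of them shared, and 8 further genes, 7 lower; same-numbered hearts share only a number.

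The 17 called genes of the glucocorticoid, receptor, inflammatory, p53 and hypoxia lists kept their direction in all 357 refits and their call in 256. The 9 of them outside the glucocorticoid list all lost their call with the atrial score, with which 102 of all 1084 called genes kept theirs. Each of the 10 genes had at least 583 counts in every heart; counting error was not separated from the spread between hearts.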

Other observations

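*Pck1*, a glucocorticoid-induced gene of gluconeogenesis and of glycerol synthesis in adipocytes, had the highest log2 fold change of the 32 further genes, 1.60 (SE 0.61; Benjamini-Hochberg adjusted p = 0.164 by the quasi-likelihood test of edgeR, not called), and was chosen after its values were seen. The log2 fold change ran from 1.06 without training heart 4 to 1.90 without sedentary heart 1 and was 0.95 with the atrial score. The adjusted p ran from 0.0528 without the filter on low counts to 0.655 with the atrial score. It was at 10.6, 3.06, 25.1, 54.4 and 27.0 CPM in training hearts 1 to 5 and at 13.5, 2.89, 1.76, 12.1 and 8.99 CPM in sedentary hearts 1 to 5. The 7 adipocyte markers, led by *Cfd*, summed to 42.4, 20.7, 83.1, 178 and 85.6 CPM in training hearts 1 to 5 and to 139, 18.1, 18.8, 48.9 and 45.6 CPM in sedentary hearts 1 to 5. Training heart 4 was the highest and sedentary hearts 2 and 3 were among the lowest for both, whereas sedentary heart 1 had the next highest adipocyte sum but less *Pck1* than training hearts 3, 4 and 5. The part of adipocytes in *Pck1* was not tested.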
